A study of Mus musculus with 81 samples.

Results

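The comparison described here is the CD229 step of wild-type (WT) microglia during demyelination: CD229pos CD11cneg cells against CD229neg CD11cneg cells of mice on cuprizone. It rests on 6 of the 81 libraries of the series, 3 per gate, chosen by their labels alone. All came from brains of adult male WT mice on the C57BL/6 background that ate 0.2% cuprizone for 4 weeks. The other WT groups used below were CD229pos CD11cpos cells of the same diet and baseline cells of mice on a regular diet, which were gated as low for CD44, CD45 and CD11b and not by CD229. The step was also set against the same gates of Trem2KO mice at 4 weeks and of Cre mice (Cx3cr1CreERT2/WT, a Cre driver line) at 6 weeks, also adult C57BL/6 males on 0.2% cuprizone. Brains of 2 to 6 mice were pooled for a sort, and the buffer that received the brains held Flavoperidol (flavopiridol, a blocker of transcription) and sodium butyrate, a histone deacetylase inhibitor, for all groups. The antibody panel included one against Ace. Nothing states which libraries came from separate pools, so the p-values measure the spread between these samples, which may be technical.

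Microglia are the resident macrophages of the brain. Cuprizone kills oligodendrocytes, the cells that make myelin, and microglia then engulf lipid-rich debris. In such settings they lose part of the expression program of the resting brain, called homeostatic, and take up another, called disease-associated, with lysosomal, lipid-handling and secreted proteins. The receptor Trem2, which senses lipids and signals through the adaptor Tyrobp, is needed for the full form of that change. CD229 is a surface receptor of the SLAM family, encoded by Ly9, that binds CD229 on neighbouring cells, and CD11c is the integrin subunit encoded by Itgax. In bulk libraries fewer cells of a kind and less RNA per cell cannot be told apart, and this holds for every result below.

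Total counts were 6884873 to 9603159 in the CD229pos and 8444330 to 9011915 in the CD229neg libraries. Levels are CPM, the count scaled to the library's size, by TMM, in the order of replicates 1 to 3. They are not per transcript length, so they are compared between libraries and not between genes. Fold changes are log2 of CD229pos over CD229neg ± SE, and p-values are from edgeR's quasi-likelihood test with Benjamini-Hochberg adjustment over 12579 genes, with a threshold of 0.05. The CD229neg replicate 3 stood apart from its group: on the first principal component, which held 74.0% of the variance, the CD229pos libraries lay at 34.5 to 35.5, CD229neg replicate 3 at -23.7 and the other CD229neg libraries at -41.1 and -40.6. It was the CD229neg library nearest to the CD229pos side for 2152 of the 3155 genes that rose and for 2018 of the 3083 that fell. On the second component, with 9.17% of the variance, replicate 3 of both gates lay apart from the rest. It was at -14.6 in CD229pos and -20.4 in CD229neg cells, and the other libraries were at 6.49 to 10.1. Border macrophage markers (Mrc1, Pf4, Lyve1 and 5 others) were also high in replicate 3 of both gates, with summed levels of 82.1, 80.4 and 223.5 CPM in CD229pos and 61.2, 61.0 and 188.8 CPM in CD229neg libraries. Their part in the results was not tested, and values without these libraries are given for some of the calls and counts that depend on them.

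The gate was read in its own transcript. Ly9 (chromosome 1, 171588613 to 171607410, minus strand, mm10) stood at 299, 318 and 277 CPM in CD229pos libraries, against 53.4, 53.4 and 54.6 CPM in CD229neg libraries (log2 fold change 2.47 ± 0.06, adjusted p = 8.7e-15). No library overlapped, and CD229neg cells were close to the baseline mean of 47.9 CPM. Itgax, although both gates were sorted as lacking CD11c, stood at 261, 273 and 241 CPM in CD229pos libraries, against 86.1, 87.2 and 163 CPM in CD229neg libraries (log2 fold change 1.20 ± 0.16, adjusted p = 5.61e-06). The CD11cpos gate averaged 1010.3 CPM of Itgax, so the CD229pos cells lay between the CD229neg cells and that gate. Clec7a, a lectin receptor of activated microglia, rose (605 ± 42.7 CPM in CD229pos and 252 ± 61.4 CPM in CD229neg cells, SD, n = 3 each, log2 fold change 1.26 ± 0.11, adjusted p = 4.38e-08). Trem2 itself rose little (log2 fold change 0.33 ± 0.08, adjusted p = 0.00226). Among the transcription factors that the study deleted in other mice, Egr2 rose to 69.5, 69 and 71.4 CPM in CD229pos libraries, against 25.7, 21.4 and 35 CPM in CD229neg libraries (log2 fold change 1.35 ± 0.14, adjusted p = 2.81e-07), whereas Mef2a fell (log2 fold change -0.43 ± 0.07, adjusted p = 4.3e-05).

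Across the transcriptome 3155 of 12579 genes were higher in CD229pos cells (25.1%) and 3083 were lower (24.5%), together 49.6%, and 632 rose (5.02%) and 580 fell (4.61%) by at least 2-fold. The median over all genes was -0.0048 on the log2 scale. The counts were 3124 and 3059 without CD229neg replicate 3, and 2762 and 2706 without replicate 3 of both gates. The libraries of the gates did not overlap for 3798 genes (30.2%) with CD229pos above and 3745 (29.8%) with CD229pos below. These shares are the background for every count of list members and every remark on overlap below. The lists and their members were chosen with earlier results of these data known, so the counts of members are a description.

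**Figure D1:**
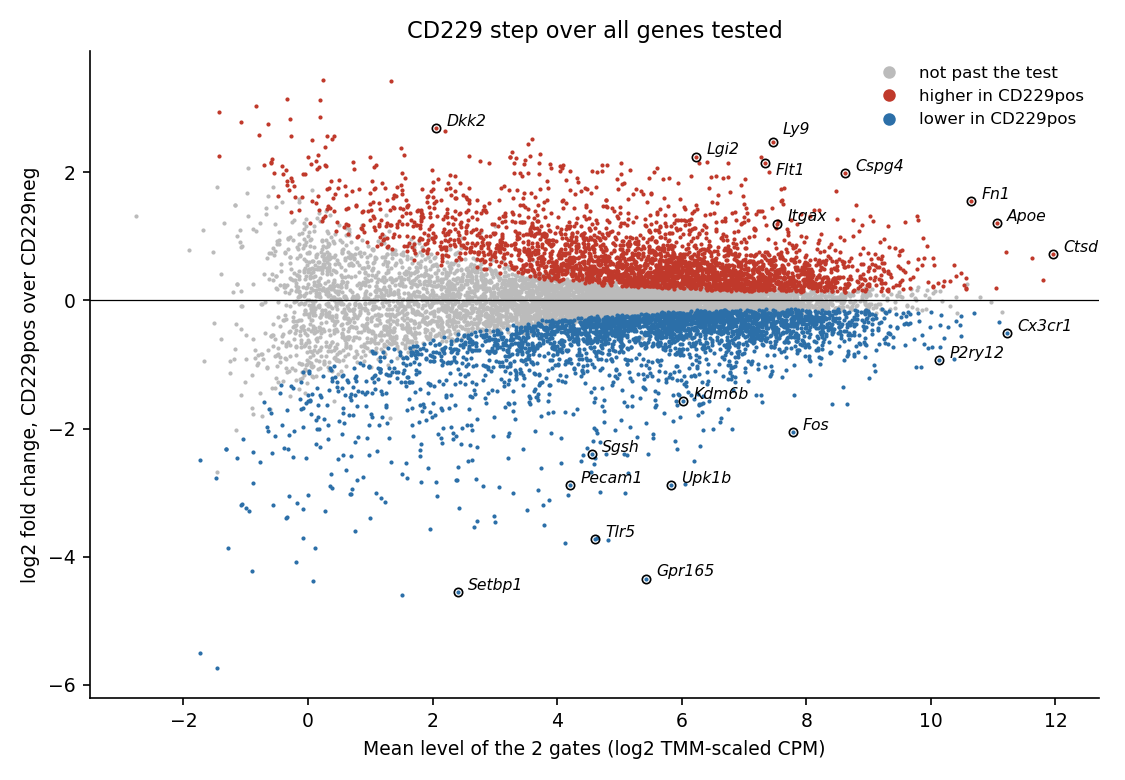
Log2 fold change of CD229pos over CD229neg cells against the mean level of the 2 gates (log2 TMM-scaled CPM), 1 point per gene, coloured by the test. Ly9 lies at 2.47 and Gpr165 at -4.34, and the falls of genes such as Gpr165 and Setbp1 reach further from 0 than any labelled rise.

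The sharpest changes were losses. The prostaglandin receptor gene Ptger3 (chromosome 3, 157566819 to 157644758, plus strand) had 0.131, 0.454 and 0.104 CPM in CD229pos libraries, against 6.01, 4.52 and 5.8 CPM in CD229neg libraries (log2 fold change -4.60 ± 0.50, adjusted p = 5.79e-07). Setbp1, which encodes a SET-binding nuclear protein, had 0.131, 0.757 and 0.415 CPM in CD229pos libraries, against 10.3, 11.1 and 9.09 CPM in CD229neg libraries (log2 fold change -4.55 ± 0.32, adjusted p = 3.74e-09). In both genes the CD229pos libraries were close to the floor of a few reads, and no library overlapped. Gpr165, an orphan G-protein-coupled receptor (chromosome X, 96713468 to 96719388, plus strand), fell to 3.54, 3.78 and 4.56 CPM in CD229pos libraries, against 84.9, 89.2 and 70.8 CPM in CD229neg libraries (log2 fold change -4.34 ± 0.18, adjusted p = 1.08e-11). Tlr5, the receptor for bacterial flagellin (chromosome 1, 182954788 to 182976044, plus strand), fell to 2.76, 3.03 and 4.25 CPM in CD229pos libraries, against 49.2, 45.4 and 41.5 CPM in CD229neg libraries (log2 fold change -3.72 ± 0.22, adjusted p = 4e-10). Il7r, a subunit of the interleukin-7 receptor, fell to 3.41, 2.12 and 4.67 CPM in CD229pos libraries, against 44.1, 53.2 and 42.4 CPM in CD229neg libraries (log2 fold change -3.71 ± 0.19, adjusted p = 1.01e-10). All 3 CD229pos libraries lay far below the lowest CD229neg library for each of these receptors. The same separation held for Tmem204 (-3.78 ± 0.21), the semaphorin gene Sema4b (-3.74 ± 0.19), the membrane metalloproteinase gene Mmp15 (-3.56 ± 0.32), the delta-catenin gene Ctnnd2 (-3.53 ± 0.31), the Myc family gene Mycl (-3.50 ± 0.22), the bZIP factor gene Hlf (-3.45 ± 0.23) and the adenylyl cyclase gene Adcy8 (-3.45 ± 0.28). These 12 genes are the largest falls with at least 5 CPM in the higher gate, and their choice fixes their direction.

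The largest rises were smaller. Beside Ly9 and Ace they were the Wnt modulator Dkk2 (2.69 ± 0.32), the Arf regulator Acap1 (2.65 ± 0.43), the secreted proteoglycan gene Mamdc2 (2.44 ± 0.22), the apolipoprotein gene Apoc4 (2.31 ± 0.26), the G-protein regulator Rgs16 (2.28 ± 0.25), the lectin-like receptor gene Klrb1b (2.25 ± 0.19), the magnesium channel gene Trpm6 (2.25 ± 0.36), Lgi2 (2.24 ± 0.22), Plp2 (2.24 ± 0.24) and Gpnmb (2.24 ± 0.14). Ace, the angiotensin-converting enzyme (chromosome 11, 105967948 to 105989964, plus strand), stood at 21.9, 22.6 and 17.6 CPM in CD229pos libraries, against 2.52, 2.83 and 5.26 CPM in CD229neg libraries (log2 fold change 2.52 ± 0.61, adjusted p = 0.00218). Its libraries did not overlap, but DESeq2 gave an adjusted p of 0.0576. Gpnmb, a glycoprotein of lipid-laden macrophages (chromosome 6, 49036518 to 49058182, plus strand), stood at 269.7, 279.7 and 220.4 CPM in CD229pos libraries, against 44, 47.4 and 71.3 CPM in CD229neg libraries (log2 fold change 2.24 ± 0.14, adjusted p = 6.89e-10). Lgi2, which encodes a secreted leucine-rich repeat protein, stood at 124, 121 and 129 CPM in CD229pos libraries, against 20.0, 17.5 and 41.1 CPM in CD229neg libraries (log2 fold change 2.24 ± 0.22, adjusted p = 1.7e-07). For both genes CD229neg replicate 3 was the highest of its gate and still below every CD229pos library.

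**Figure D2:**
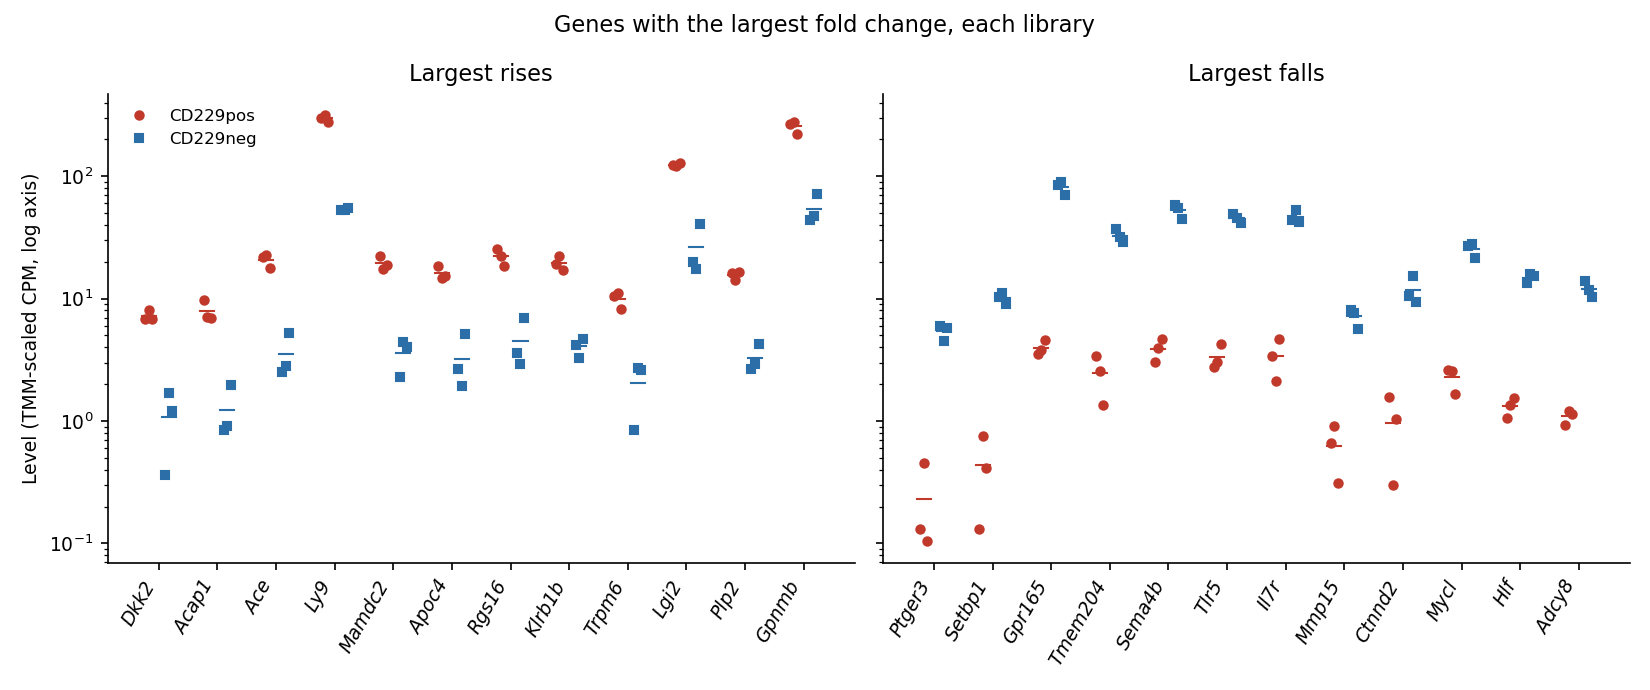
Level of each of the 12 largest rises (left) and falls (right) in every library, in TMM-scaled CPM on a log axis. Red points are the 3 CD229pos and blue points the 3 CD229neg libraries, and bars are group means. The gates do not overlap for any of these genes, which the choice required, and the mean of Ptger3 is 0.23 CPM in CD229pos and 5.45 CPM in CD229neg cells.

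The genes were also ranked by absolute change in CPM, which favours abundant and long transcripts. The protease gene Ctsd rose to 4966 ± 471 CPM in CD229pos and 3016 ± 180.1 CPM in CD229neg cells (log2 fold change 0.72 ± 0.08, adjusted p = 1.63e-06), and Ctsb, another cathepsin, to 2956 ± 213 CPM in CD229pos and 1756 ± 124 CPM in CD229neg cells (0.75 ± 0.07). Apoe, the main apolipoprotein of the brain, rose to 2972 ± 277 CPM in CD229pos and 1293 ± 173 CPM in CD229neg cells (log2 fold change 1.20 ± 0.14, adjusted p = 1.94e-06). Fn1, which encodes fibronectin, stood at 2321, 2560.5 and 2273 CPM in CD229pos libraries, against 686, 708 and 1053 CPM in CD229neg libraries (log2 fold change 1.55 ± 0.17, adjusted p = 8.96e-07). No library overlapped for these genes, and Fn1 showed the same high CD229neg replicate 3 as Lgi2. The pore-forming protein gene Mpeg1 (0.66 ± 0.07), the lipoprotein receptor gene Lrp1 (0.31 ± 0.08), the phosphatidylserine-sensing kinase gene Axl (1.32 ± 0.14), the lipase gene Lpl (1.25 ± 0.10), the fatty acid desaturase gene Scd2 (1.23 ± 0.10) and the syndecan gene Sdc3 (0.98 ± 0.09) completed the 10 largest rises on this scale. The 10 largest falls included the fractalkine receptor gene Cx3cr1 (1983 ± 169 CPM in CD229pos and 2816 ± 257 CPM in CD229neg cells, -0.51 ± 0.08), the purinergic receptor gene P2ry12 (769.6 ± 65.7 CPM in CD229pos and 1469 ± 151 CPM in CD229neg cells, -0.93 ± 0.08) and Sall1, a factor that marks microglia (782 ± 34 CPM in CD229pos and 1298 ± 84.5 CPM in CD229neg cells, -0.73 ± 0.06). The others were Soga1 (-0.91 ± 0.07), the homeobox gene Zfhx3 (-1.04 ± 0.10), Tanc2 (-1.05 ± 0.08), Ivns1abp (-0.72 ± 0.08), Tgfbr1 (-0.55 ± 0.07), Macf1 (-0.34 ± 0.07) and Srgap2 (-0.74 ± 0.07).

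The 2 programs of microglia moved in opposite directions, but one moved more evenly than the other. All 25 disease-associated genes rose, with a median of 1.20 and a range of 0.51 to 2.24, where 25.1% of all genes rose. The growth factor gene Igf1 (chromosome 10, 87859052 to 87937047, plus strand) led by fold after Gpnmb, at 276, 287 and 246 CPM in CD229pos libraries, against 52.8, 58.5 and 89.2 CPM in CD229neg libraries (log2 fold change 2.01 ± 0.16, adjusted p = 1.32e-08). The chemokine gene Ccl6 rose as well (403 ± 11.9 CPM in CD229pos and 197 ± 25.5 CPM in CD229neg cells, log2 fold change 1.03 ± 0.08, adjusted p = 8.66e-09). Of 24 homeostatic genes 17 fell and 2 rose, with a median of -0.55, where 24.5% of all genes fell. Upk1b, which encodes a tetraspanin (chromosome 16, 38773184 to 38800203, minus strand), fell to 14.7, 13.9 and 12.2 CPM in CD229pos libraries, against 110.0, 102 and 87.7 CPM in CD229neg libraries (log2 fold change -2.88 ± 0.12, adjusted p = 1.68e-11). The vesicle protein gene Lrba (-1.27 ± 0.06), the adhesion receptor gene Adgrg1 (-1.11 ± 0.07) and the fructose transporter gene Slc2a5 (-0.87 ± 0.07) followed. Each of these 4 had CD229pos and CD229neg libraries apart. The homeostatic genes that rose were Fcrls, an Fc receptor-like gene (log2 fold change 0.38 ± 0.07, adjusted p = 0.00033), and Sparc (log2 fold change 0.20 ± 0.07, adjusted p = 0.0335), whose call ended in 5 alternatives, with an adjusted p of up to 0.195. Among those that did not pass the test were Csf1r, Golm1, Ltc4s and Olfml3, named here after their values were seen.

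**Figure D3:**
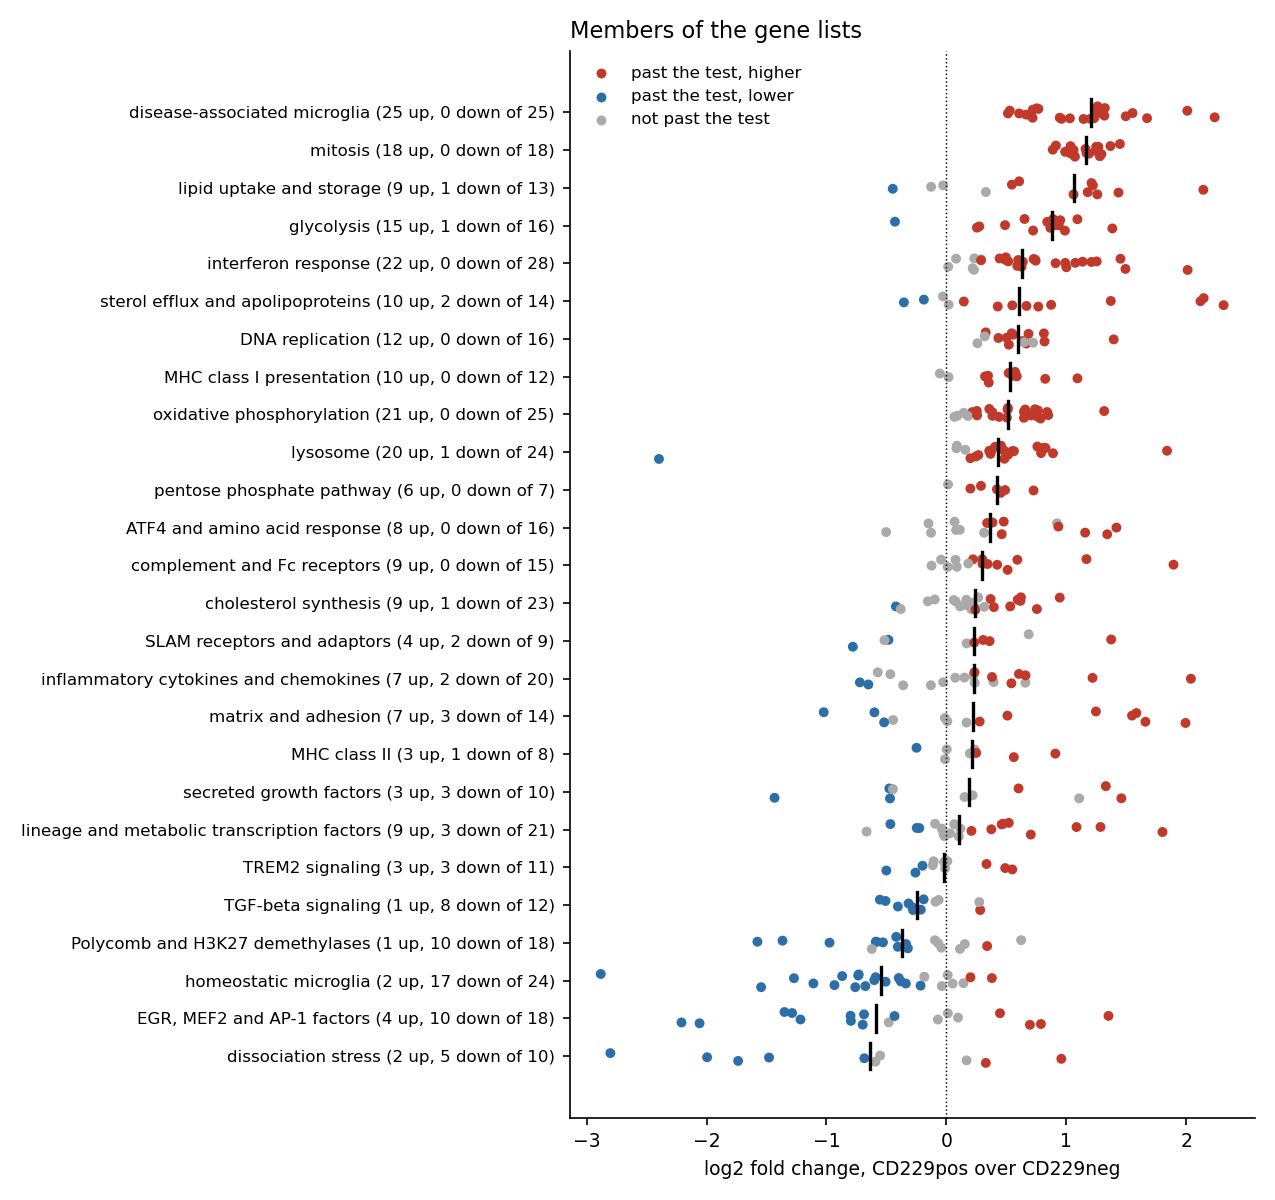
Log2 fold change of every tested member of the 26 gene lists, 1 point per gene, ordered by list median (black bar). The dotted line is the median of all genes. Disease-associated and mitosis genes lie wholly above 0, with medians of 1.20 and 1.16, and the homeostatic list spans -2.88 to 0.38.

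Genes of the interferon response rose together. These genes are switched on by the factor ISGF3, which binds a short element, the ISRE, in their promoters. Of 28 members 22 rose and 0 fell, with a median of 0.63 (25 rose without CD229neg replicate 3, 24 without replicate 3 of both gates). Of 19 members with a RefSeq promoter (250 bases before to 50 after the start site, GRCm38.p6), 13 (68.4%) held, on either strand, the letters GAAA, 2 bases of any kind and GAAA again, against 3.99% of 27025 genes. The share describes the list as chosen, members that did not pass included, and is not a result of the step. The promoter of Rsad2, the antiviral viperin gene (chr12:26456403-26456702, minus strand), is shown since Rsad2 has the smallest p of the list. Capitals mark the element, which here reads on the other strand.
Rsad2: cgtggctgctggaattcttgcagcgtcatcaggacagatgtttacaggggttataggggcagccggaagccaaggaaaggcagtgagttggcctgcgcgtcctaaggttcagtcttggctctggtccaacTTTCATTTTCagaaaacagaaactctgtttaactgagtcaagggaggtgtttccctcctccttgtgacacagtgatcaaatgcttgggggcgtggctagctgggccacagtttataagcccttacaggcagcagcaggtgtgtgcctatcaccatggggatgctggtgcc

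Rsad2 (chromosome 12, 26442743 to 26456452, minus strand) stood at 95.2, 97.6 and 94.9 CPM in CD229pos libraries, against 30.8, 30.1 and 44.1 CPM in CD229neg libraries (log2 fold change 1.45 ± 0.11, adjusted p = 6.28e-09). Oas3, which makes the messenger that activates RNase L, stood at 42.4, 39.8 and 38.4 CPM in CD229pos libraries, against 7.45, 7.24 and 15 CPM in CD229neg libraries (log2 fold change 2.01 ± 0.20, adjusted p = 1.85e-07). CD229neg replicate 3 was the highest of its gate for both genes, and no library overlapped. Ifit2, an inhibitor of translation, rose by 1.07 ± 0.11 and Ifi27l2a by 1.25 ± 0.13. Ifit and Oas genes have close paralogs that may take up each other's reads, which leaves single levels uncertain. The members that did not pass were Parp14, Rtp4, Ifit3b, Cxcl10, Mx2 and Xaf1, named after their values were seen. Genes of antigen presentation by MHC class I, also targets of interferon, rose in 10 of 12 cases with 0 falls and a median of 0.53. B2m, the shared light chain, rose to 845 ± 76 CPM in CD229pos and 583 ± 15.2 CPM in CD229neg cells (log2 fold change 0.53 ± 0.07, adjusted p = 3.13e-06). Nlrc5, the transactivator of class I genes, stood at 132, 133 and 131 CPM in CD229pos libraries, against 64.3, 70.3 and 88.8 CPM in CD229neg libraries (log2 fold change 0.82 ± 0.11, adjusted p = 6.27e-06), and its libraries did not overlap. The peptide transporter gene Tap1 (0.55 ± 0.08) and the heavy chain gene H2-D1 (0.59 ± 0.09) also rose, and H2-D1 shares sequence with other H2 genes.

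Cell division genes were higher in CD229pos cells. All 18 mitosis genes rose, with a median of 1.16, and 12 of 16 DNA replication genes rose with 0 falls and a median of 0.59. The replication count was 15 without CD229neg replicate 3 and 10 without CD229pos replicate 3. With DESeq2 the mitosis count was 15. Mitosis genes are controlled late in the cell cycle through CCAAT boxes, bound by NF-Y, and a nearby element called CHR. Of 15 mitosis genes with a promoter in the table, 10 (66.7%) held TTTGAA, the letters of the CHR, against 20.2% of all genes, and 13 (86.7%) held CCAAT, against 41.1%. Of 14 DNA replication genes 8 (57.1%) held CCAAT. These shares too describe the lists and not the step. The promoter of the cyclin gene Ccnb2 (chr9:70421505-70421804, minus strand) is shown since it holds both elements. Capitals mark its CCAAT and TTTGAA letters.
Ccnb2: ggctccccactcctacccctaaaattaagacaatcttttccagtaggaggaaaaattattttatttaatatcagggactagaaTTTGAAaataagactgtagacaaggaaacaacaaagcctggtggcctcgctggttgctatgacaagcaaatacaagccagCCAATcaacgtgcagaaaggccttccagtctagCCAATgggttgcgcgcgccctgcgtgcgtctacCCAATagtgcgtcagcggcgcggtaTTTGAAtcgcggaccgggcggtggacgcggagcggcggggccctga

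Ccnb2 (chromosome 9, 70407689 to 70421554, minus strand) stood at 30.9, 31.5 and 34.6 CPM in CD229pos libraries, against 11.4, 10.6 and 17.8 CPM in CD229neg libraries (log2 fold change 1.28 ± 0.21, adjusted p = 7.32e-05). Cdk1, the mitotic kinase that cyclin B activates, stood at 44.9, 49.8 and 55.3 CPM in CD229pos libraries, against 18.6, 16.5 and 27.2 CPM in CD229neg libraries (log2 fold change 1.27 ± 0.17, adjusted p = 8.31e-06). CD229neg replicate 3 was again the highest of its gate, and no library overlapped. The chromosome kinase gene Aurkb rose by 1.16 ± 0.19 and the kinetochore motor gene Cenpe by 1.37 ± 0.23. Among replication genes, the helicase subunit gene Mcm6 (0.68 ± 0.13), the clamp gene Pcna (0.43 ± 0.09) and the ribonucleotide reductase gene Rrm1 (0.67 ± 0.13) rose. Rrm2, the other reductase subunit, stood at 37.8, 42.8 and 51 CPM in CD229pos libraries, against 13.1, 16.2 and 20.8 CPM in CD229neg libraries (log2 fold change 1.39 ± 0.30, adjusted p = 0.000802), without overlap, but DESeq2 gave an adjusted p of 0.124. Levels of Cdk1 averaged 3.24 CPM at baseline and 28.2 CPM in CD11cpos cells, both below the CD229pos CD11cneg libraries.

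Genes of glucose and energy metabolism rose. Of 16 glycolysis genes 15 rose, with a median of 0.88. Slc2a1, the glucose transporter GLUT1 (chromosome 4, 119108745 to 119137329, plus strand), stood at 290.0, 289.9 and 265 CPM in CD229pos libraries, against 143, 146 and 175 CPM in CD229neg libraries (log2 fold change 0.87 ± 0.07, adjusted p = 2.11e-08). The isomerase genes Gpi1 (0.84 ± 0.07) and Tpi1 (0.95 ± 0.09) and the lactate exporter gene Slc16a3 (0.99 ± 0.08) rose by similar steps. Hk1, a hexokinase, was the exception, at 37.6, 33 and 42.4 CPM in CD229pos libraries, against 46.2, 53.8 and 52.9 CPM in CD229neg libraries (log2 fold change -0.43 ± 0.10, adjusted p = 0.00189). Its libraries did not overlap, and CD229pos cells were below baseline cells (60.3 CPM in the mean). Of 7 pentose phosphate genes, which make NADPH and ribose, 6 rose (4 without CD229neg replicate 3), led by the lactonase gene Pgls (log2 fold change 0.73 ± 0.09, adjusted p = 4.76e-06), with Tkt (0.49 ± 0.07), Pgd (0.42 ± 0.06) and Rpe (0.45 ± 0.11). Of 25 genes for subunits of oxidative phosphorylation 21 rose and 0 fell, with a median of 0.51. Ndufa1, of complex I, stood at 43.3, 44.4 and 45 CPM in CD229pos libraries, against 17.6, 14.1 and 21.6 CPM in CD229neg libraries (log2 fold change 1.32 ± 0.16, adjusted p = 1.79e-06). The complex IV genes Cox5a (0.71 ± 0.09) and Cox4i1 (0.78 ± 0.10) and the ATP synthase gene Atp5c1 (0.50 ± 0.07) rose as well. In the ATF4 and amino acid list 8 of 16 rose and 0 fell (7 rose and 2 fell without CD229neg replicate 3). Psat1, of serine synthesis, stood at 398, 431 and 385 CPM in CD229pos libraries, against 133, 134 and 187 CPM in CD229neg libraries (log2 fold change 1.42 ± 0.12, adjusted p = 2.32e-08), and its libraries did not overlap. The glutamine transporter gene Slc1a5 (0.93 ± 0.15), the mitochondrial serine enzyme gene Shmt2 (0.48 ± 0.08) and the asparagine synthetase gene Asns (1.16 ± 0.22) rose too.

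Genes that take up, store and carry lipid rose. Of 13 tested genes of lipid uptake and storage 9 rose and 1 fell, with a median of 1.06, and Fabp4 was too low to test. The rises were 10 without CD229neg replicate 3 and 7 without CD229pos replicate 3. Scarb1, a receptor for high-density lipoprotein, stood at 301, 323 and 293 CPM in CD229pos libraries, against 121, 115 and 147 CPM in CD229neg libraries (log2 fold change 1.26 ± 0.09, adjusted p = 2.93e-09). Plin2, which coats lipid droplets, stood at 177, 181 and 169 CPM in CD229pos libraries, against 67.2, 65.1 and 95.2 CPM in CD229neg libraries (log2 fold change 1.21 ± 0.11, adjusted p = 8.1e-08), and Plin3, a related coat gene, rose by 1.22 ± 0.09. Neither Scarb1 nor Plin2 overlapped between gates. Lipa, the acid lipase of lysosomes, rose by 0.61 ± 0.07, whereas Acsl1, which activates fatty acids for use, fell (47.5 ± 2.11 CPM in CD229pos and 64.8 ± 4.15 CPM in CD229neg cells, log2 fold change -0.45 ± 0.08, adjusted p = 9.06e-05). Of 14 genes of sterol efflux and apolipoproteins 10 rose and 2 fell, with a median of 0.61. Apoc1 stood at 47.8, 46.6 and 41.6 CPM in CD229pos libraries, against 7.45, 8.03 and 15.6 CPM in CD229neg libraries (log2 fold change 2.12 ± 0.19, adjusted p = 5.52e-08), and its neighbours Apoc2 (2.14 ± 0.21) and Apoc4 rose by similar folds. Nceh1, which hydrolyses cholesterol esters (log2 fold change 1.37 ± 0.10, adjusted p = 5.14e-09), and Soat1, which makes them (log2 fold change 0.77 ± 0.07, adjusted p = 3.78e-08), both rose. The falls were Mylip, a ubiquitin ligase (log2 fold change -0.35 ± 0.07, adjusted p = 0.000234), and Lpcat3 (log2 fold change -0.19 ± 0.06, adjusted p = 0.0125), whose call ended without CD229pos replicate 1 (adjusted p = 0.0628) and without replicate 3 of both gates (adjusted p = 0.0729). Both are known targets of the sterol receptor LXR. They are 2 falls beside 10 rises in the list, and the part of LXR was not tested.

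Cholesterol synthesis moved less evenly. Of 23 genes 9 rose, 1 fell and 13 did not pass, with a median of 0.24. Of all genes 25.1% rose and 24.5% fell. Fdft1, the first enzyme committed to sterols (log2 fold change 0.59 ± 0.08, adjusted p = 3.88e-06), Dhcr7 (0.53 ± 0.08) and Hmgcs1 (0.62 ± 0.11) rose. Lss, which closes the sterol rings, fell to 11.3, 12.3 and 14.2 CPM in CD229pos libraries, against 16.6, 16.7 and 17.5 CPM in CD229neg libraries (log2 fold change -0.42 ± 0.12, adjusted p = 0.00781). The libraries of the gates were apart for Lss.

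Lysosomal genes rose with 1 exception that stood far from the rest. Of 24 genes 20 rose, with a median of 0.43. Many such genes carry the letters CACGTG, an E-box read by the factors TFEB and TFE3. Of 19 members with a promoter 8 (42.1%) held it, against 8.09% of all genes, and in the disease-associated list 2 of 20 (10.0%) did. Here too the shares describe the lists, whichever way the members moved, and not the step. The promoters of Glb1, which encodes the lysosomal beta-galactosidase (chr9:114400828-114401127, plus strand), and of Sgsh, which encodes a sulfatase of heparan sulfate breakdown (chr11:119355461-119355760, minus strand), are shown since both hold the letters, in capitals, and moved in opposite directions.
Glb1: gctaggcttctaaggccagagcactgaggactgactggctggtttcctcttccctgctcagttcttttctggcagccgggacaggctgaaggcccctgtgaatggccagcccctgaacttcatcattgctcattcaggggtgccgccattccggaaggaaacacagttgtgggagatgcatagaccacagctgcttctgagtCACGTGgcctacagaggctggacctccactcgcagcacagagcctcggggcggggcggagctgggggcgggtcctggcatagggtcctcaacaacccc
Sgsh: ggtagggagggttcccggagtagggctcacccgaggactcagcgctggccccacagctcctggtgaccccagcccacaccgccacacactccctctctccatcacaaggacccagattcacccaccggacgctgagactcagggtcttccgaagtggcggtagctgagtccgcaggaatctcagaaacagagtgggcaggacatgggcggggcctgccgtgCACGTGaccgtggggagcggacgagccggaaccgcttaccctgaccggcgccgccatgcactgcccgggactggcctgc

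Glb1 (chromosome 9, 114401078 to 114474379, plus strand) stood at 270.2, 291 and 263 CPM in CD229pos libraries, against 131, 139 and 174 CPM in CD229neg libraries (log2 fold change 0.89 ± 0.09, adjusted p = 1.4e-07). Sgsh (chromosome 11, 119343489 to 119355510, minus strand) fell to 7.48, 6.05 and 8.71 CPM in CD229pos libraries, against 42.1, 36.1 and 41.1 CPM in CD229neg libraries (log2 fold change -2.40 ± 0.13, adjusted p = 2.43e-10). Each gene's gates were apart, in opposite directions. Sgsh averaged 67.1 CPM at baseline, and it was the only lysosomal list member past the test with a lower level in CD229pos cells. Naglu, of the same breakdown pathway as Sgsh, rose (469.9 ± 11.7 CPM in CD229pos and 278 ± 29.7 CPM in CD229neg cells, log2 fold change 0.76 ± 0.07, adjusted p = 1.21e-07). The proton pump subunit gene Atp6v1a (0.81 ± 0.07) and the glucuronidase gene Gusb (0.83 ± 0.08) rose too. The transcripts of the E-box factors did not rise. The activity of these factors was not measured, and their part in the lysosomal changes was not tested. Tfeb stood at 61.8, 58.4 and 55.5 CPM in CD229pos libraries, against 83.9, 87.3 and 71.6 CPM in CD229neg libraries (log2 fold change -0.47 ± 0.09, adjusted p = 0.000389), and Tfe3 fell as well (log2 fold change -0.25 ± 0.05, adjusted p = 0.000866).

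Transcription factors changed in both directions. In the list of EGR, MEF2 and AP-1 factors 10 of 18 fell and 4 rose, with a median of -0.58. Over all genes 24.5% fell and 25.1% rose. Fos (chromosome 12, 85473890 to 85477274, plus strand) stood at 92.4, 85.1 and 78.3 CPM in CD229pos libraries, against 324, 318 and 420.5 CPM in CD229neg libraries (log2 fold change -2.06 ± 0.30, adjusted p = 1.62e-05). Junb fell to 309, 291 and 291 CPM in CD229pos libraries, against 529, 488 and 531 CPM in CD229neg libraries (log2 fold change -0.80 ± 0.12, adjusted p = 3.44e-05). All CD229neg libraries were above the CD229pos libraries for both, and CD229neg replicate 3 was the highest. Batf3 (-1.29 ± 0.17) and Maf (-0.70 ± 0.09) also fell. Against these, Egr2 rose as given above, and so did Nab2, a corepressor that binds EGR proteins (199 ± 10.7 CPM in CD229pos and 122 ± 11.6 CPM in CD229neg cells, log2 fold change 0.70 ± 0.10, adjusted p = 1.64e-05). Genes that respond to the handling of tissue moved alongside: of 10 genes of dissociation stress 5 fell and 2 rose. Btg2 (-1.48 ± 0.17), the mRNA decay gene Zfp36 (-0.68 ± 0.10), the phosphatase gene Dusp1 (-1.74 ± 0.41) and the heat shock gene Hspa1b (-2.80 ± 0.80), which shares most of its sequence with Hspa1a, fell, whereas Hspe1 (0.96 ± 0.12) and Hsp90aa1 (0.33 ± 0.09) rose. Dusp1 stood at 44.8, 48.4 and 19.9 CPM in CD229pos libraries, against 112, 119 and 137 CPM in CD229neg libraries. Its gates did not overlap, and the part of handling in the Fos and Junb values was not tested.

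Among lineage and metabolic factors 9 of 21 rose and 3 fell, with Pparg and Id3 too low to test. Over all genes 25.1% rose and 24.5% fell. Hif1a, which drives glycolysis genes when oxygen is low (chromosome 12, 73907867 to 73947554, plus strand), stood at 622, 647 and 602 CPM in CD229pos libraries, against 265, 287 and 330.4 CPM in CD229neg libraries (log2 fold change 1.08 ± 0.08, adjusted p = 7.4e-09). Bhlhe40, a transcriptional repressor, stood at 194, 200.1 and 182 CPM in CD229pos libraries, against 45.7, 44.2 and 74.6 CPM in CD229neg libraries (log2 fold change 1.80 ± 0.15, adjusted p = 1.92e-08). Both were apart between gates, and Bhlhe40 was near 1.15 CPM at baseline. Myc (0.52 ± 0.08) and the lipid receptor gene Ppard (0.47 ± 0.07) rose by less. Polycomb proteins and the demethylases that remove their mark, H3K27 methylation, moved mostly down: 10 of 18 fell and 1 rose, with a median of -0.37. Kdm6b, a demethylase (chromosome 11, 69398518 to 69416194, minus strand), fell to 33.7, 30.9 and 33.2 CPM in CD229pos libraries, against 107, 99.2 and 86 CPM in CD229neg libraries (log2 fold change -1.58 ± 0.11, adjusted p = 2.77e-09). Cbx7, a subunit that reads the mark, fell to 23.4, 23.6 and 23.8 CPM in CD229pos libraries, against 62.8, 66.6 and 53.2 CPM in CD229neg libraries (log2 fold change -1.37 ± 0.10, adjusted p = 7.32e-09). No library overlapped for either. The accessory genes Phf1 (-0.59 ± 0.08) and Jarid2 (-0.58 ± 0.08) fell, and the methyltransferase gene Ezh2 rose (log2 fold change 0.34 ± 0.10, adjusted p = 0.00861), a call that ended without replicate 3 of both gates (adjusted p = 0.0831).

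TGF-beta holds microglia in their homeostatic state, and 8 of 12 genes of its signaling fell while 1 rose, with a median of -0.25. The receptor gene Tgfbr1 stood at 1174, 1245 and 1079.7 CPM in CD229pos libraries, against 1803, 1770.2 and 1564 CPM in CD229neg libraries (log2 fold change -0.55 ± 0.07, adjusted p = 4.76e-06). The partner receptor gene Tgfbr2 stood at 1063, 1136 and 1058 CPM in CD229pos libraries, against 922, 887 and 871 CPM in CD229neg libraries (log2 fold change 0.28 ± 0.06, adjusted p = 0.000667). The gates were apart for both, so the 2 subunits of the receptor moved in opposite directions. The signal carriers Smad3 (-0.51 ± 0.06) and Smad4 (-0.40 ± 0.07) and the corepressor gene Skil (-0.28 ± 0.06) fell.

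Of 10 growth factor genes 3 rose and 3 fell, near the 25.1% and 24.5% of all genes, with Lif, Nrg1, Areg and Grem1 too low to test. Vegfa, the vascular growth factor, stood at 81.3, 85.8 and 84 CPM in CD229pos libraries, against 30.2, 30.3 and 39.3 CPM in CD229neg libraries (log2 fold change 1.33 ± 0.10, adjusted p = 8.35e-09). Flt1, a receptor for it (chromosome 5, 147561604 to 147726011, minus strand), stood at 267, 253 and 273 CPM in CD229pos libraries, against 46.5, 49.8 and 82.6 CPM in CD229neg libraries (log2 fold change 2.14 ± 0.16, adjusted p = 5.83e-09). Both were apart between gates, and CD229neg replicate 3 was the highest of its gate for each. Fgf1 (1.46 ± 0.20) and Pdgfa (0.60 ± 0.08) rose, whereas Pdgfb (-0.48 ± 0.07) and the protease gene Bmp1 (-0.47 ± 0.12) fell. Of 14 matrix and adhesion genes 7 rose and 3 fell, with Timp1 and Col4a1 too low to test. Cspg4, the proteoglycan NG2 (chromosome 9, 56865104 to 56899870, plus strand), stood at 614, 613 and 658 CPM in CD229pos libraries, against 129, 129.5 and 214 CPM in CD229neg libraries (log2 fold change 1.99 ± 0.17, adjusted p = 3.19e-08). The hyaluronan receptor gene Cd44 (1.58 ± 0.15) and the galectin gene Lgals1 (1.66 ± 0.18) rose, whereas Mmp14, a membrane protease (49.8 ± 1.9 CPM in CD229pos and 101 ± 1.43 CPM in CD229neg cells, -1.02 ± 0.09), and the integrin gene Itgav (-0.52 ± 0.08) fell.

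Flt1 and Cspg4 are also markers of vessels, so other cells were measured. The summed endothelial and pericyte markers were 263 to 280.2 CPM in CD229pos libraries, against 87.4 to 118 CPM in CD229neg libraries, and most of each sum was Flt1. Cldn5, Tek, Pdgfrb and Rgs5 were under 1 CPM in every library. Pecam1 moved the other way, with 5.51, 4.69 and 3.22 CPM in CD229pos libraries, against 34, 37 and 26.7 CPM in CD229neg libraries (log2 fold change -2.89 ± 0.18, adjusted p = 7.86e-10), and Cdh5 fell too (log2 fold change -1.16 ± 0.31, adjusted p = 0.00454; adjusted p = 0.0510 without replicate 3 of both gates). Pecam1 averaged 61.7 CPM in baseline microglia. Summed oligodendrocyte markers overlapped between gates, at 168 to 186 CPM in CD229pos and 179 to 192 CPM in CD229neg libraries. Within them Mag (-0.67 ± 0.11) fell and Mbp rose (log2 fold change 0.24 ± 0.08, adjusted p = 0.0176), a call that ended without CD229pos replicate 1 (adjusted p = 0.117) and without CD229neg replicate 1 or 2 (0.0622 and 0.0668). Astrocyte markers summed to 87.6 to 102 CPM in CD229pos and 138 to 148 CPM in CD229neg libraries, most of it the glutamate transporter gene Slc1a3 (log2 fold change -0.73 ± 0.06, adjusted p = 4.56e-08). Of 8 border macrophage markers 1 rose, the folate receptor gene Folr2, at 32.4, 34.4 and 36.8 CPM in CD229pos libraries, against 5.53, 7.8 and 17.5 CPM in CD229neg libraries (log2 fold change 1.74 ± 0.28, adjusted p = 4.44e-05, and 2.37 without CD229neg replicate 3). Without CD229neg replicate 3 the list had 3 rises and a median of 1.435, against 0.295 with all libraries. Its median was -1.077 without CD229pos replicate 3, so it rests on these libraries. The monocyte markers Ly6c2 and Chil3 and the lymphocyte markers Cd3e, Cd3g, Cd8a, Nkg7, Gzmb and Ncr1 had 0 reads in all 6 libraries, and neutrophil markers summed to under 1 CPM in each. All 7 monocyte markers together summed to 10.1 to 13.7 CPM in CD229pos and 10.5 to 17.5 CPM in CD229neg libraries, highest in replicate 3 of each gate. Of these markers 3 were tested and 0 passed. Klrb1c, a lectin-like receptor that also rose among the markers of T and NK cells (log2 fold change 1.19 ± 0.45, adjusted p = 0.036), reached 2.42 without CD229neg replicate 3, and lost its call without CD229pos replicate 3 (adjusted p = 0.172) or CD229neg replicate 1 or 2 (0.158 each). The B cell marker Cd79b (-0.77 ± 0.15) fell, as did the dendritic cell markers Zbtb46 (log2 fold change -0.90 ± 0.28, adjusted p = 0.0138) and Flt3 (log2 fold change -1.59 ± 0.56, adjusted p = 0.024), both under 6 CPM in every library. Zbtb46 lost its call without CD229neg replicate 3 (adjusted p = 0.0597) and without replicate 3 of both gates (0.0755), and Flt3 in 4 settings with 1 library left out (adjusted p up to 0.112). The neuron markers tested, 2 of 8, did not pass.

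Set beside the other WT groups, genes picked as examples showed 3 patterns of level, described without a test. How many genes followed each pattern was not counted. Gpr165, lost at the CD229 step, averaged 196 CPM at baseline, 81.7 CPM in CD229neg, 3.96 CPM in CD229pos and 3.42 CPM in CD229pos CD11cpos cells. Tlr5 averaged 81 CPM at baseline, 45.3 CPM in CD229neg, 3.35 CPM in CD229pos and 2.63 CPM in CD229pos CD11cpos cells. The CD11cpos gate stayed low for both. Igf1 was higher still in that gate, at 3.63 CPM at baseline, 66.8 CPM in CD229neg, 269.8 CPM in CD229pos and 360.5 CPM in CD229pos CD11cpos cells. Other genes peaked in CD229pos CD11cneg cells. Lgi2 averaged 0.0287 CPM at baseline, 26.2 CPM in CD229neg, 125 CPM in CD229pos and 28.3 CPM in CD229pos CD11cpos cells. Fn1 averaged 1.18 CPM at baseline, 816 CPM in CD229neg, 2385 CPM in CD229pos and 1386 CPM in CD229pos CD11cpos cells. Cspg4, Flt1, Scarb1, Psat1, Vegfa and Folr2 had their highest mean in the same group, and Folr2 fell back to 8.47 CPM in CD11cpos cells, against 34.5 CPM in CD229pos CD11cneg cells.

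**Figure D4:**
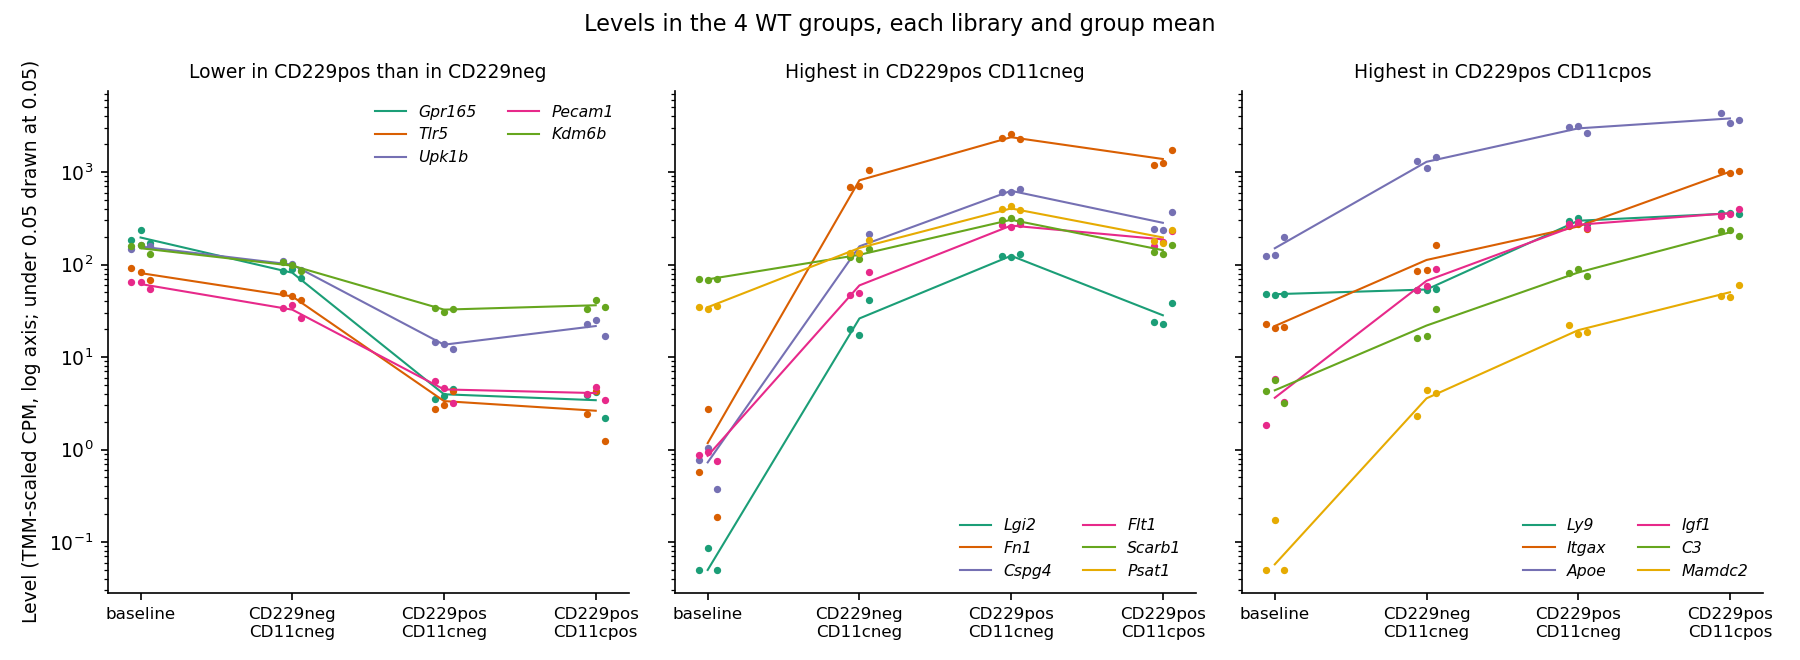
Level in TMM-scaled CPM (log axis, values under 0.05 drawn at 0.05) of genes in the 4 WT groups, with 1 point per library and lines through the means. Gpr165 drops to 3.96 CPM in CD229pos CD11cneg cells and stays low (left), Lgi2 peaks there at 125 CPM (middle), and Itgax reaches 1010.3 CPM with CD11c (right).

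The step was then compared with the same gates of other mice, by testing the difference of the steps across all genes. In the Trem2KO mice Trem2 was 140.5 to 166 CPM in CD229pos libraries, against 120.0 to 128 CPM in CD229neg libraries. In the WT mice, scaled in the same table, it was 607 to 693 CPM in CD229pos libraries, against 487 to 552 CPM in CD229neg libraries, so all Trem2KO libraries were below all WT libraries but not at 0, and the deleted part of the gene is not given in the sources used here. Against Trem2KO cells (4 libraries per gate, 12647 genes) the WT step was more positive for 730 genes (5.77%, or 1122 genes with only the 4 groups fitted) and more negative for 1141 (9.02%). With a replicate block, which pairs libraries of the same number, these counts were 1373 and 1860. Against Cre cells at 6 weeks (3 libraries per gate, 12594 genes) it was more positive for 110 (0.873%) and more negative for 525 (4.17%). The 110 became 32 without WT CD229neg replicate 2, 199 without WT CD229neg replicate 3, 180 without Cre CD229pos replicate 2 and 42 to 64 without any 1 of 8 others, so that count rests on single libraries. With a replicate block the counts against Cre cells were 629 and 1063. Genotype, weeks of diet and cohort cannot be told apart in the second comparison, and both use the same WT libraries. Ly9 differed in neither (-0.08 ± 0.11, adjusted p = 0.702 against Trem2KO, and 0.19 ± 0.17, adjusted p = 0.573 against Cre). The genes with the deepest falls in WT did differ. Of the 12 largest falls 11 were more negative in WT than in Trem2KO cells, with median steps of -3.72 in WT and -1.54 in Trem2KO, and Ctnnd2 did not pass (-1.09 ± 0.40, adjusted p = 0.0698). All 12 were more negative in WT than in Cre cells, with medians of -3.70 in WT and -1.25 in Cre. Those genes were chosen for their WT step, so the counts are a description.

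Gpr165 shows the levels behind this: in Trem2KO mice it was 27.3 to 45 CPM in CD229pos libraries, against 118 to 147 CPM in CD229neg libraries. In Cre mice at 6 weeks it was 34.1 to 48.8 CPM in CD229pos libraries, against 105 to 147 CPM in CD229neg libraries. Tlr5 in Trem2KO mice was 13.6 to 26 CPM in CD229pos libraries, against 60.8 to 74.2 CPM in CD229neg libraries, and in Cre mice 25.1 to 32.4 CPM in CD229pos libraries, against 56.2 to 62.1 CPM in CD229neg libraries. Both genes thus fell at the step in all 3 cohorts without overlap, but only WT CD229pos libraries reached 2.76 to 4.56 CPM. Of the 12 largest rises 1 was more positive in WT than in Trem2KO cells (Plp2, 1.44 ± 0.47, adjusted p = 0.0389) and 1 more negative (Gpnmb, -0.93 ± 0.31, adjusted p = 0.0445), and 0 passed against Cre cells. Dkk2, Acap1, Trpm6 and Ace were near the floor in Trem2KO CD229pos cells, at means of 0.021, 0.063, 0.027 and 0.22 CPM. In WT CD229pos cells they averaged 7.40, 8.11, 10.2 and 21.2 CPM. The SEs of their differences from Trem2KO were 1.57 to 2.18, so the test could not decide whether these steps differed. Ace and Trpm6 list another transcript in the Trem2KO counts than in the WT counts, so their levels may not be comparable between the genotypes. Gpnmb was 16.0 to 20.3 CPM in Trem2KO CD229pos libraries, against 0.94 to 3.53 CPM in CD229neg libraries. In WT mice it was 225 to 286 CPM in CD229pos libraries, against 45.0 to 72.8 CPM in CD229neg libraries. Its larger fold in Trem2KO cells thus went with lower levels. Igf1 rose by 2.01 ± 0.17 in WT and 3.32 ± 0.21 in Trem2KO cells (difference -1.31 ± 0.28, adjusted p = 0.002). Igf1 levels in Trem2KO cells are not given here, so its larger fold there need not be a higher level. Egr2 had steps of 1.35 ± 0.27 in WT and -0.61 ± 0.44 in Trem2KO cells (difference 1.96 ± 0.52, adjusted p = 0.00982), and the Trem2KO step alone did not pass (adjusted p = 0.332). Sgsh, the lysosomal exception, had steps of -2.39 ± 0.13 in WT and -0.29 ± 0.09 in Trem2KO cells (difference -2.11 ± 0.16, adjusted p = 9.24e-10). In Trem2KO mice Sgsh was 38.7 to 54.2 CPM in CD229pos libraries, against 56.7 to 62.5 CPM in CD229neg libraries, so its gates did not overlap there either. Kdm6b also fell further in WT than in Trem2KO cells (-0.78 ± 0.14, adjusted p = 0.000228) and in Cre cells (-1.11 ± 0.16, adjusted p = 6.88e-05), whereas the difference for Fos did not pass against either (adjusted p = 0.205 and 0.311).

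**Figure D5:**
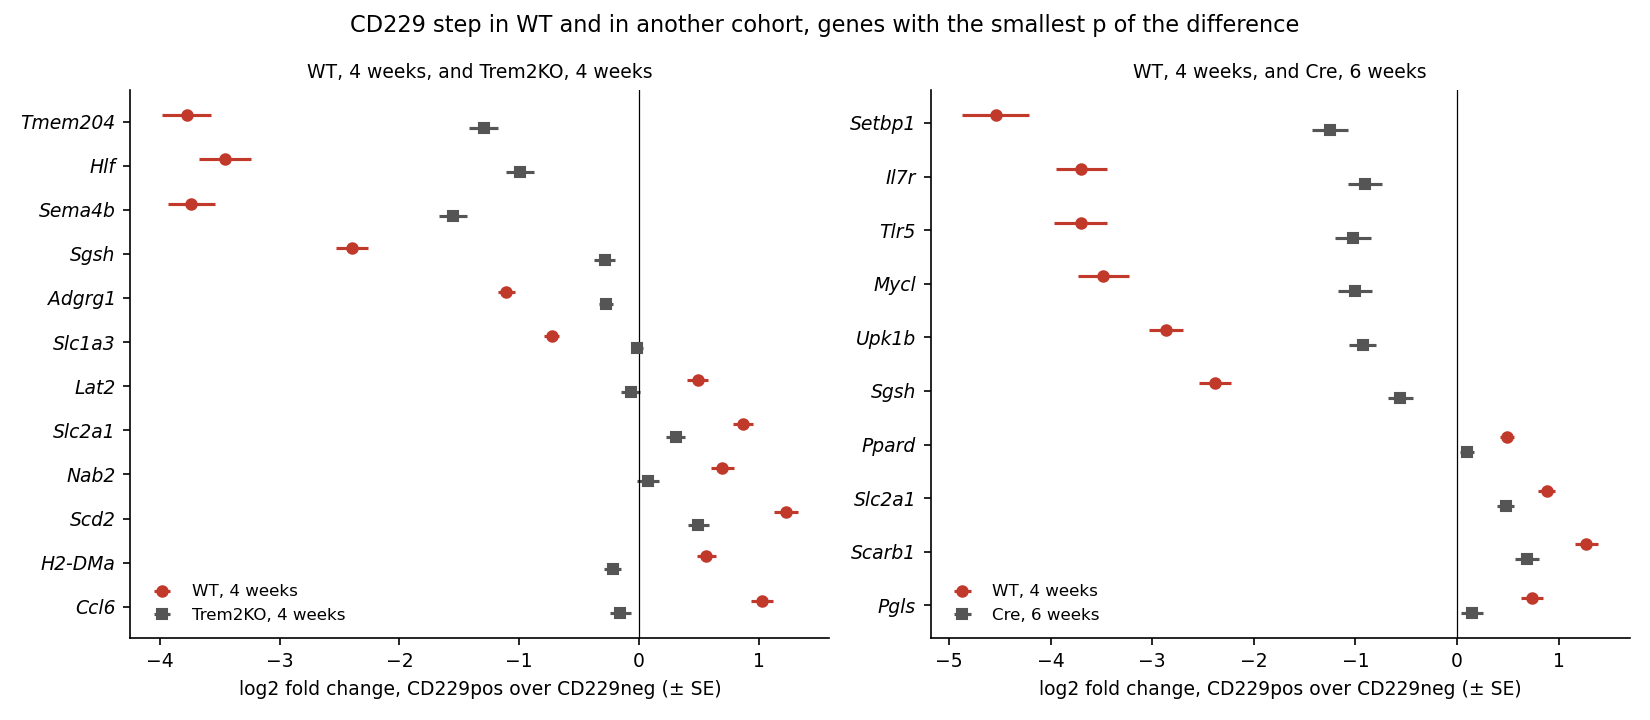
Log2 fold change of CD229pos over CD229neg cells ± SE in WT mice at 4 weeks (red) and in Trem2KO mice at 4 weeks (left, grey) or Cre mice at 6 weeks (right, grey), for the named genes with the smallest p of the difference. Falls such as Tmem204 (-3.78 in WT and -1.30 in Trem2KO) and Il7r (-3.70 in WT and -0.91 in Cre) are deeper in WT.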

How the data were processed

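Microglia were sorted and polyadenylated RNA was sequenced as strand-specific (dUTP) libraries, per the labels' protocols. The deposited tables hold raw read counts per gene (whole numbers, 25124 genes, 1 RefSeq transcript each, mm10). Per the submitters' processing notes the authors used DESeq2, HOMER 4.11, STAR 2.7.0f and fastp 0.20.0, with roles not given in the sources used here. Whether counting used strand is not stated, so a gene and an antisense partner cannot be told apart. Replicates of the 2 gates compared differed by 1.56 to 5.75 times counting noise, and those of baseline cells by up to 8.30.

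The counts of the 12 WT libraries were modelled in edgeR 4.0.16 (R 4.3.3) after filterByExpr and TMM scaling, with a mean for each group, 8 residual degrees of freedom and the quasi-likelihood F test, and the script was tested on simulated data. SEs are the absolute log2 fold change over the root of F. For the difference of steps, WT and Trem2KO tables were joined at the 24910 genes where the shared baseline libraries held identical counts (1346 list another transcript, among them 5 of 180 named genes: Ace, Apoc1, Clec7a, Fn1 and Trpm6), and WT and 6-week tables at the 23587 genes with the same transcript. Named genes were the sorting and deleted genes, the 12 largest folds and 10 largest CPM differences per direction (adjusted p under 0.05, at least 5 CPM, no overlap, no predicted genes or small RNAs), up to 4 members per list and 2 in its other direction by adjusted p, and up to 6 per sign of each difference by adjusted p. A few named genes are not reported here. Members and lists were chosen with earlier results of these data known. Alternatives were DESeq2 1.42.0, other scalings, no filter, other sets of libraries, a replicate block, a PE150 tag of some 6-week libraries as covariate, and each library left out; leaving out replicate 3 of both gates was added after seeing the data. Promoters are from RefSeq (GRCm38.p6) and were printed only where the start site is that of the counted transcript.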

Additional observations from a re-analysis of the deposited data

Results flagged for a closer look

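The CD229 step of these genes differed between WT mice and another cohort by a test of the difference itself, and they are the named genes with the smallest adjusted p per sign. Against Trem2KO at 4 weeks, steps were more negative in WT for Sgsh (-2.11 ± 0.16, adjusted p = 9.24e-10), Tmem204 (-2.48 ± 0.25, adjusted p = 1.27e-07), Hlf (-2.46 ± 0.26, adjusted p = 2.01e-07), Adgrg1 (-0.83 ± 0.09, adjusted p = 3.7e-07), Sema4b (-2.19 ± 0.24, adjusted p = 3.93e-07) and Slc1a3 (-0.71 ± 0.08, adjusted p = 4.33e-07). The Slc1a3 steps were -0.73 ± 0.06 in WT and -0.01 ± 0.05 in Trem2KO cells. Steps were more positive in WT for Ccl6 (1.19 ± 0.13, adjusted p = 2.2e-07), H2-DMa (0.78 ± 0.11, adjusted p = 8.5e-06), Scd2 (0.73 ± 0.13, adjusted p = 0.000237), Slc2a1 (0.56 ± 0.11, adjusted p = 0.000916), Lat2, an adaptor of Fc and Trem receptors (0.56 ± 0.12, adjusted p = 0.00149), and Nab2 (0.62 ± 0.13, adjusted p = 0.00206). H2-DMa, a loader of MHC class II peptides, had steps of 0.56 ± 0.08 in WT and -0.22 ± 0.07 in Trem2KO cells. None of these 12 calls ended in any alternative. Several were not particular to Trem2KO. Against Cre at 6 weeks the WT step was also more negative for Tmem204 (-2.57 ± 0.37, adjusted p = 6.6e-05), Sema4b (-2.32 ± 0.32, adjusted p = 3.7e-05), Hlf (-1.94 ± 0.41, adjusted p = 0.0039) and Adgrg1 (-0.72 ± 0.16, adjusted p = 0.0076). Sgsh and Slc2a1 differed there too, as given below. Ccl6, H2-DMa, Scd2 and Lat2 did not pass against Cre (adjusted p = 0.83, 0.305, 0.587 and 0.697).

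Against Cre at 6 weeks, steps were more negative in WT for Upk1b (-1.94 ± 0.21, adjusted p = 1.7e-06), Sgsh (-1.82 ± 0.20, adjusted p = 1.6e-06), Il7r (-2.79 ± 0.31, adjusted p = 2.05e-06), Tlr5 (-2.69 ± 0.33, adjusted p = 8.3e-06), Setbp1 (-3.29 ± 0.41, adjusted p = 1.02e-05) and Mycl (-2.48 ± 0.31, adjusted p = 1.09e-05). They were more positive for Ppard (0.39 ± 0.10, adjusted p = 0.0162), Pgls (0.60 ± 0.15, adjusted p = 0.0197), Scarb1 (0.58 ± 0.16, adjusted p = 0.0356) and Slc2a1 (0.40 ± 0.11, adjusted p = 0.0385). Each of these 4 lost its call in some alternatives: the adjusted p reached 0.0737 for Ppard and 0.0863 for Pgls without WT CD229neg replicate 2, 0.125 for Scarb1 without the same library, and 0.141 for Slc2a1 without WT CD229neg replicate 1. Genotype, weeks and cohort cannot be told apart here.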

How the results depend on the processing

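Counts of the WT step were 2694 to 3124 higher and 2598 to 3059 lower with each library left out, and between 5314 and 6966 genes were called over all settings. DESeq2 gave 3127 higher and 2711 lower, and library totals without scaling 2953 and 3300. No call of the step changed sign in any setting. For the 183 named genes 2516 of the gene and setting pairs kept their call and 41 lost it. Differences against Trem2KO moved more: 494 to 864 positive and 907 to 1200 negative with a library left out, and 1122 positive with only the 4 groups fitted. Against Cre at 6 weeks positive differences ranged from 32 (without WT CD229neg replicate 2) to 199 (without WT CD229neg replicate 3), with 180 without Cre CD229pos replicate 2 and 42 to 64 in 8 others, and negative ones from 379 to 663; DESeq2 gave 175 positive and the PE150 tag as covariate 167. Replicate numbers are shared across gates, and residuals of same-numbered WT libraries correlated by 0.081, 0.064 and 0.203. The main fit did not pair libraries by number, although each CD229pos library correlated best with its own number. Low correlations over all genes do not show that the samples are unpaired, and pairing was not tested. With a replicate block the WT step had 3711 higher and 3255 lower, the Trem2KO difference 1373 positive and 1860 negative, and the Cre difference 629 and 1063. The cause of these moves was not tested. Depth and the spread of 3 libraries per gate both limit which differences can be called.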

Other observations

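Of 15 complement and Fc receptor genes 9 rose and 0 fell, with a median of 0.30. The complement gene C3 stood at 80.6, 90.7 and 75.4 CPM in CD229pos libraries, against 16.1, 16.7 and 33 CPM in CD229neg libraries (log2 fold change 1.89 ± 0.18, adjusted p = 1.24e-07). The activating receptor gene Fcgr4 rose to 59.5 ± 3.01 CPM in CD229pos and 26.4 ± 7.34 CPM in CD229neg cells (log2 fold change 1.17 ± 0.13, adjusted p = 1.27e-06), and the inhibitory receptor gene Fcgr2b rose by 0.59 ± 0.06. Both C3 and Fcgr4 were apart between gates, and Fcer1g, the shared signaling chain, rose by 0.51 ± 0.07. Fc receptor genes are close paralogs, so single levels are uncertain. In the SLAM family, beside Ly9, 4 of 9 genes rose and 2 fell, with Sh2d1a too low to test. Over all genes 25.1% rose and 24.5% fell. Cd244a, a neighbour of Ly9 on chromosome 1, stood at 66.7, 67.2 and 77 CPM in CD229pos libraries, against 22.1, 21.3 and 37.9 CPM in CD229neg libraries (log2 fold change 1.37 ± 0.16, adjusted p = 1.86e-06), and its libraries did not overlap. Cd48 (0.36 ± 0.06) and Cd84 (0.31 ± 0.06) rose by less, and Slamf9 (log2 fold change 0.23 ± 0.07, adjusted p = 0.0125) lost its call in 4 settings (adjusted p up to 0.0803). Slamf8 (-0.48 ± 0.10) and Slamf1 (-0.78 ± 0.20) fell.

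MHC class II genes moved little: 3 of 8 rose and 1 fell, where 25.1% of all genes rose and 24.5% fell. H2-Ab1 stood at 58.4, 53 and 77 CPM in CD229pos libraries, against 25.6, 26.6 and 48.5 CPM in CD229neg libraries (log2 fold change 0.91 ± 0.34, adjusted p = 0.0334), without overlap, but its call ended with DESeq2 (adjusted p = 0.188) and in 4 settings with a library left out. H2-DMa rose (log2 fold change 0.56 ± 0.08, adjusted p = 1.33e-05), as did H2-DMb1 (log2 fold change 0.25 ± 0.07, adjusted p = 0.00797; adjusted p = 0.0595 without CD229pos replicate 2), and H2-Oa fell (log2 fold change -0.25 ± 0.09, adjusted p = 0.0224; adjusted p up to 0.109 in 5 settings). In TREM2 signaling 3 of 11 rose and 3 fell, close to the 25.1% and 24.5% of all genes, with Vav3 too low to test. The adaptor gene Tyrobp (0.55 ± 0.08) and Lat2 (0.49 ± 0.07) rose, whereas the kinase gene Syk stood at 256, 259 and 249.6 CPM in CD229pos libraries, against 372, 366 and 344 CPM in CD229neg libraries (log2 fold change -0.50 ± 0.06, adjusted p = 8.72e-07), and Inpp5d, a phosphatase that restrains the pathway, fell (log2 fold change -0.20 ± 0.06, adjusted p = 0.0116; adjusted p up to 0.0651 with 1 library left out). Of 20 cytokine and chemokine genes 7 rose and 2 fell, beside the same shares of all genes, with Cxcl1 too low to test. Cxcl14 stood at 60.4, 55.6 and 57.5 CPM in CD229pos libraries, against 12.3, 11.1 and 18.7 CPM in CD229neg libraries (log2 fold change 2.04 ± 0.19, adjusted p = 1.24e-07), and its libraries were apart. Il1rn, which blocks interleukin-1 receptors (1.22 ± 0.26), Cxcl16 (0.38 ± 0.08) and Nfkbiz (0.54 ± 0.11; adjusted p = 0.0726 when WT and Trem2KO libraries were fitted together) rose, while the interleukin-1 gene Il1a (79.7 ± 4.6 CPM in CD229pos and 131 ± 2.23 CPM in CD229neg cells, log2 fold change -0.72 ± 0.08, adjusted p = 7.28e-07) and Il18 (-0.65 ± 0.13) fell.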
